A study of Mus musculus with 7 samples.

Results

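The miR-181 family was followed across small RNA libraries of mouse hepatocytes. The 7 members are the listed mature miR-181 names, without 3 others that had at most 12 reads in any library. The 7 were taken out of 1966 mature miRNA names counted in each library. They are 4 of the 5p arm (mmu-miR-181a-5p, mmu-miR-181b-5p, mmu-miR-181c-5p and mmu-miR-181d-5p, where mmu stands for mouse) and 3 of the 3p arm (mmu-miR-181a-1-3p, mmu-miR-181a-2-3p and mmu-miR-181c-3p). The libraries came from ALAS12-KO hepatocytes (n = 4) and WT hepatocytes (n = 3), cells enriched from collagenase-perfused liver by low-speed spins. ALAS is 5-aminolevulinate synthase, which opens heme synthesis, and the study asked whether it bears on small RNA levels. All 7 libraries, WT included, carry the treatment label TMX, which the labels do not spell out, and they name no strain, sex, age, allele or Cre driver. They do not say either that replicates came from separate animals, so the p-values reflect no more than library-to-library spread, part of which may be technical. Mature miRNA counts do not measure Alas1 or Alas2, so they give no check of the genotype labels.

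A miRNA hairpin is cut into a 5p and a 3p strand, and one of them is usually kept by Argonaute, the protein that uses it to silence messenger RNAs. Targets are chosen mainly through the seed, bases 2 to 8 of the mature strand, so strands that share a seed share most predicted targets. The miR-181 family is best known from lymphocytes, where miR-181a tunes the sensitivity of developing T cells to antigen, and its 5p strands have also been studied in endothelium and in liver cancer.

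The mature strands are shown because the seed groups them and because single bases tell them apart. All 7 had a sequence in RefSeq on GRCm38.p6. Capitals mark the seed.
mmu-miR-181a-5p: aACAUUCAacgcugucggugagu
mmu-miR-181b-5p: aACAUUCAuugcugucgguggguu
mmu-miR-181c-5p: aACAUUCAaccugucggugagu
mmu-miR-181d-5p: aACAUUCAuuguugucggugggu
mmu-miR-181a-1-3p: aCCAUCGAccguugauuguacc
mmu-miR-181c-3p: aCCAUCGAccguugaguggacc
mmu-miR-181a-2-3p: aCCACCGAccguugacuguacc

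The 4 members of the 5p arm share the seed ACAUUCA, and no other of the 1679 mature mouse miRNAs in the RefSeq table has it. The 3p arms fall into a pair with the seed CCAUCGA, miR-181a-1-3p and miR-181c-3p, and miR-181a-2-3p alone with CCACCGA. Counted from 1 at the 5′ end and over the 23 bases they share, miR-181d-5p differs from miR-181b-5p by the substitution C12U. Removing base 11 of miR-181a-5p gives miR-181c-5p. The summary entry for non-unique alignment was 0 in all libraries, so how a read that fits more than 1 of these names was handled cannot be read from the tables, and near-identical members are uncertain one by one.

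The 6 hairpins lie in 3 pairs (GENCODE M21, GRCm38). Mir181a-1 (137966455 to 137966541) and Mir181b-1 (137966639 to 137966718) are 97 bases apart on the plus strand of chromosome 1, in exonic sequence of the noncoding gene A430106G13Rik and within introns of Gm4258 on the same strand and Gm26936 on the opposite one. Mir181a-2 (38852735 to 38852810) and Mir181b-2 (38853830 to 38853918) are 1019 bases apart on the plus strand of chromosome 2, within introns of Nr6a1, an orphan nuclear receptor gene on the opposite strand. Mir181b-2 also overlaps an exon of Gm44144 on that strand. Mir181d (84178716 to 84178787) and Mir181c (84178873 to 84178961) are 85 bases apart on the minus strand of chromosome 8, in introns of Nanos3, a germ cell gene on the same strand. Since miR-181a-5p and miR-181b-5p are each made from hairpins on chromosomes 1 and 2, their counts cannot be split between the loci. The 3p arms of the miR-181a hairpins can be, as the hairpins show, with both mature strands in capitals. In these the 3p strand changes by U5C and U16C between miR-181a-1-3p and miR-181a-2-3p.
Mir181a-1, chr1:137966455-137966541, plus strand: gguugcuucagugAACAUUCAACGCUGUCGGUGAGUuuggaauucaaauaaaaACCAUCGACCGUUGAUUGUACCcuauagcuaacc
Mir181a-2, chr2:38852735-38852810, plus strand: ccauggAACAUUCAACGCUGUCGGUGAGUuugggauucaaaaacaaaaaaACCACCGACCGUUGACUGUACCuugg

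The libraries held 10093244 to 17091539 miRNA reads in ALAS12-KO and 7719180 to 21962191 in WT. Hepatocyte miRNAs, 6 of 6 detected in every library, summed to 606484 to 693154 CPM (reads per 1000000 miRNA reads) in ALAS12-KO and 633679 to 661802 CPM in WT, so they were most of the reads. Markers of other cells were present too, and ALAS12-KO replicate 1 was the lowest of the 7 libraries in the sums of the endothelial, leukocyte, mesenchymal, cholangiocyte and red cell lists. The member fold changes, the sums, the arm ratios and the share of the miR-181a hairpins were therefore also computed without it.

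The family was a small part of these libraries and its level differed far more among ALAS12-KO libraries than among WT libraries. The members summed to 22.8, 33.1, 166 and 93.3 CPM in ALAS12-KO replicates 1 to 4 and to 61.3, 48.7 and 59.9 CPM in WT replicates 1 to 3. The ALAS12-KO libraries thus lay on both sides of WT, with replicates 1 and 2 below every WT library and replicates 3 and 4 above. Their mean was 78.8 ± 65.9 CPM (SD, n = 4) in ALAS12-KO and 56.6 ± 6.90 CPM (SD, n = 3) in WT. In reads this was 300 to 2835 per library in ALAS12-KO and 462 to 1070 in WT.

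**Figure D1:**
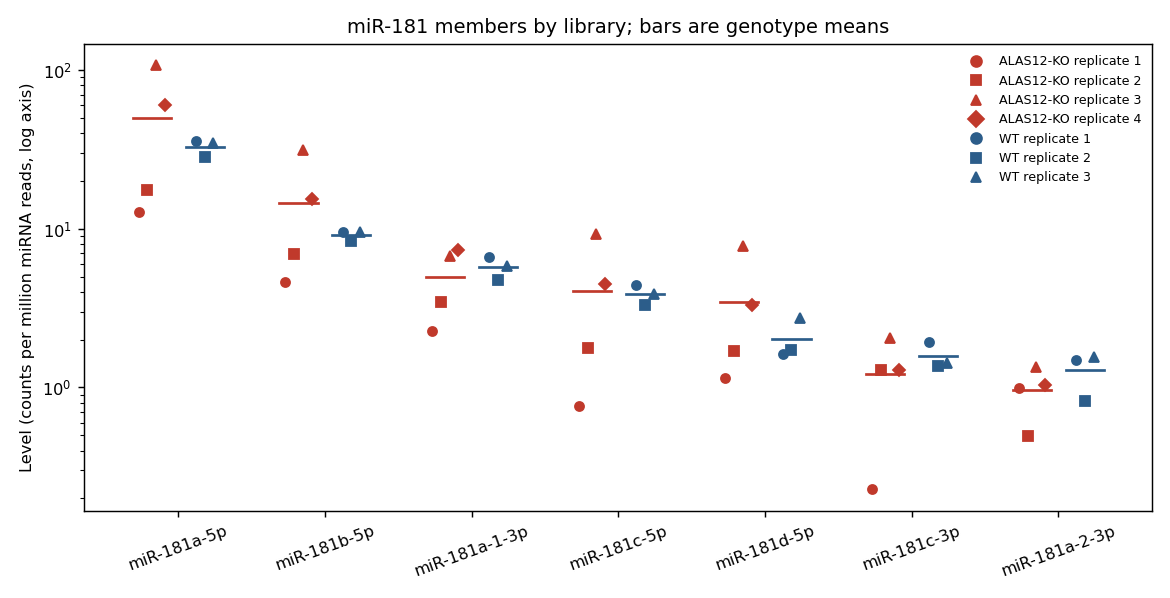
Level of each member in every library, in CPM on a log axis, with ALAS12-KO in red at the left and WT in blue at the right of each pair, 1 marker shape per replicate number and a bar at each genotype's mean. For miR-181a-5p the ALAS12-KO libraries run from 12.8 to 107 CPM and the WT libraries from 28.4 to 35.8 CPM.

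mmu-miR-181a-5p, the main strand of the family, stood at 12.8, 17.4, 107 and 60.6 CPM in ALAS12-KO replicates 1 to 4 and at 35.8, 28.4 and 34.8 CPM in WT replicates 1 to 3. These values came from 168 to 1835 reads per library in ALAS12-KO and from 269 to 623 in WT. The ALAS12-KO libraries again lay on both sides of WT, so the groups overlapped. On the TMM-scaled fit of all 450 tested miRNAs, its log2 fold change was 0.65 ± 0.58 (SE), with a 95% interval of −0.66 to 1.96 and an edgeR adjusted p of 0.542. That positive value rested on ALAS12-KO replicate 3, and without this library it was −0.01.

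mmu-miR-181b-5p, which carries the same seed, stood at 4.63, 6.94, 31.4 and 15.3 CPM in ALAS12-KO replicates 1 to 4 and at 9.49, 8.38 and 9.59 CPM in WT replicates 1 to 3. The order of the ALAS12-KO libraries was that of miR-181a-5p. Its log2 fold change was 0.75 ± 0.50 (SE), with a 95% interval of −0.38 to 1.88 and an edgeR adjusted p of 0.395, and it was 0.11 without ALAS12-KO replicate 3. The ratio of the pair varied less than either level, with miR-181b-5p at 25.3% to 39.8% of miR-181a-5p in ALAS12-KO and 26.5% to 29.5% in WT.

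mmu-miR-181c-5p, from the chromosome 8 pair, had 10, 18, 158 and 73 reads in ALAS12-KO replicates 1 to 4 and 71, 73 and 30 reads in WT replicates 1 to 3. In CPM this was 0.759, 1.78, 9.24 and 4.46 in ALAS12-KO and 4.43, 3.32 and 3.89 in WT. The largest ALAS12-KO value was 12.2 times the smallest, and the groups overlapped. Its log2 fold change was 0.16 ± 0.60 (SE), with a 95% interval of −1.20 to 1.52 and an edgeR adjusted p of 0.914. The sign turned without ALAS12-KO replicate 3, where the value was −0.58, and with limma-voom, where it was −0.20.

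mmu-miR-181d-5p, its neighbour, stood at 1.14, 1.68, 7.78 and 3.30 CPM in ALAS12-KO replicates 1 to 4 and at 1.62, 1.73 and 2.72 CPM in WT replicates 1 to 3. Replicate 3 was again the highest of the ALAS12-KO libraries and replicate 1 the lowest. It had the largest estimate of the 7 members, a log2 fold change of 0.92 ± 0.54 (SE), with a 95% interval of −0.31 to 2.15 and an edgeR adjusted p of 0.350. Without ALAS12-KO replicate 3 the value was 0.21.

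The 3p members stood nearer to WT in ALAS12-KO replicate 3 than the 5p members did. miR-181a-1-3p, the strand that marks the chromosome 1 locus, stood at 2.28, 3.47, 6.73 and 7.32 CPM in ALAS12-KO replicates 1 to 4 and at 6.61, 4.74 and 5.83 CPM in WT replicates 1 to 3. In ALAS12-KO replicate 3 it was thus 1.17 times the WT mean, where miR-181a-5p was 3.25 times its own. Its log2 fold change was −0.07 ± 0.33 (SE), with a 95% interval of −0.83 to 0.68 and an edgeR adjusted p of 0.921. Without 1 library it ran from −0.32 (without ALAS12-KO replicate 4) to 0.10 (without ALAS12-KO replicate 1).

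mmu-miR-181a-2-3p, the strand that marks the chromosome 2 locus, had 13, 5, 23 and 17 reads in ALAS12-KO replicates 1 to 4 and 24, 18 and 12 reads in WT replicates 1 to 3. The log2 fold change was −0.18 ± 0.36 (SE), with a 95% interval of −1.002 to 0.64 and an edgeR adjusted p of 0.793. It was −0.43 without WT replicate 2 and −0.03 without WT replicate 1. miR-181c-3p had 3, 13, 35 and 21 reads in ALAS12-KO replicates 1 to 4 and 31, 30 and 11 reads in WT replicates 1 to 3. Its log2 fold change was −0.25 ± 0.48 (SE), with a 95% interval of −1.34 to 0.84 and an edgeR adjusted p of 0.790. It was −0.62 without ALAS12-KO replicate 3 and 0.03 without ALAS12-KO replicate 1. Both 3p members overlapped between the genotypes.

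All 7 members passed the filter on low counts, and 0 of them passed the adjusted threshold of 0.05. The edgeR test called 0 of 450 miRNAs (0%), while 84 (18.7%) had an unadjusted p under 0.05, and 0 of the 7 members were among those. DESeq2 called 22 of 450 (4.89%), with 0 of the 7 members among them, and limma-voom called 0. The genotypes did not overlap in CPM for 93 of the 450 (20.7%), and for 0 of the 7 members. The members had 4 positive and 3 negative log2 fold changes, with a median of 0.16 beside 0.06 over all 450. The positive ones were the 5p members and the negative ones the 3p members. The numbers of positive and negative members were the same with library totals, upper-quartile and DESeq2 scaling factors. They were 3 positive and 4 negative with limma-voom, 6 and 1 without ALAS12-KO replicate 1, and 2 and 5 without ALAS12-KO replicate 3. Library totals shifted the median of all tested miRNAs to −0.12. Direction also moved with the scaling and the filter: TMM put 54.8% of the 84 miRNAs above higher in ALAS12-KO. Among those each setting found at that p, the share was 52.9% under DESeq2 factors in edgeR and 53.6% in DESeq2. It was 27.3% under library totals and 32.9% under upper-quartile scaling. With TMM kept, it was 48.9% in limma-voom and 47.8% with no filter. It was 38.8% with TMM when miRNAs under a mean of 10 CPM were left out.

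**Figure D2:**
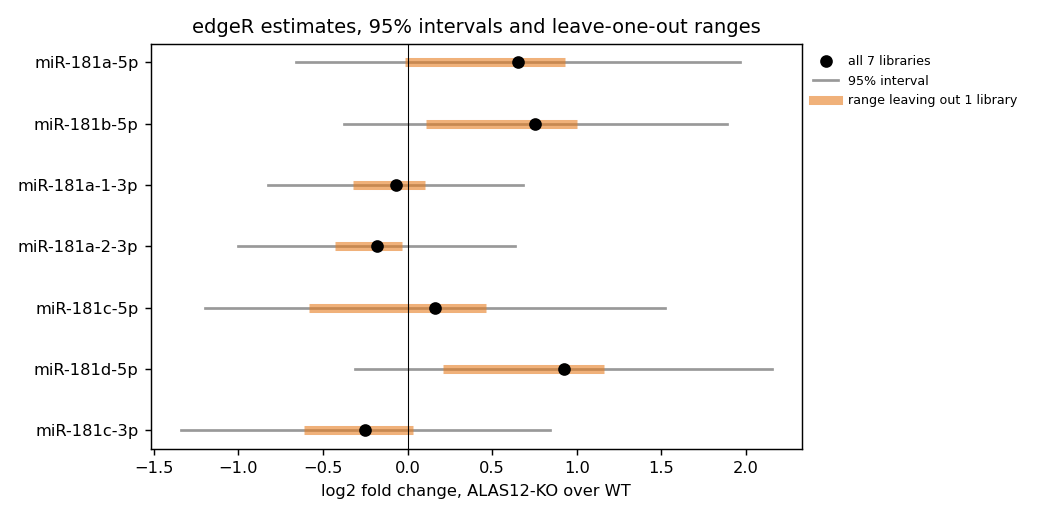
log2 fold change of each member, ALAS12-KO over WT, from edgeR with its 95% interval in grey and the range of values when 1 library at a time was left out in orange. All 7 intervals hold 0, and the estimates run from −0.25 for miR-181c-3p to 0.92 for miR-181d-5p.

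The spread within ALAS12-KO was wide for the 5p members and miR-181c-3p beside other miRNAs. Over the 446 tested miRNAs with no ALAS12-KO library at 0, the highest ALAS12-KO library was a median of 2.05 times the lowest. Among those of the 446 with no WT library at 0, the highest WT library was a median of 1.37 times the lowest. These ratios are over 4 and 3 libraries. The ratio in ALAS12-KO was 8.42 for miR-181a-5p, 6.77 for miR-181b-5p and 6.83 for miR-181d-5p. A ratio at least as large as that of miR-181a-5p was held by 10 of the 446, at least as large as that of miR-181b-5p by 20, and at least as large as that of miR-181c-5p by 2. In WT the same ratios were 1.26, 1.14, 1.33 and 1.68 for miR-181a-5p, miR-181b-5p, miR-181c-5p and miR-181d-5p. Of the 3p members, miR-181c-3p had a ratio of 8.99 in ALAS12-KO, which 6 of the 446 reached and whose lowest library held 3 reads. For miR-181a-1-3p the ratio was 3.22, which 112 reached, and for miR-181a-2-3p it was 2.72, which 149 reached. These are descriptions of 4 libraries and were not tested.

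By mean level the order of the members was the same in both genotypes. It ran from miR-181a-5p through miR-181b-5p, miR-181a-1-3p, miR-181c-5p, miR-181d-5p and miR-181c-3p to miR-181a-2-3p. Each mature strand is 22 to 24 bases long and 1 read stands for 1 strand, so no scaling by length was made, although strands can differ in how well they ligate to the linker. miR-181a-5p exceeded miR-181b-5p, and miR-181b-5p exceeded miR-181a-1-3p, in 7 of 7 libraries. The WT ranges of neighbours in this order were apart down to miR-181d-5p, and the last neighbours did not differ beyond their spread. In WT, miR-181d-5p averaged 2.02 ± 0.605 CPM, miR-181c-3p 1.58 ± 0.313 CPM and miR-181a-2-3p 1.29 ± 0.409 CPM (SD, n = 3 each). Over all 1302 miRNAs with any read, miR-181a-5p ranked 142 and miR-181a-2-3p 386. The other 3 miR-181 names in the tables, miR-181b-1-3p, miR-181b-2-3p and miR-181d-3p, had at most 12 reads in any library.

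By cluster, the 4 miR-181a/b members carried most of the reads in both genotypes. They summed to 70.0 ± 58.5 CPM (SD, n = 4) in ALAS12-KO and 49.2 ± 5.99 CPM (SD, n = 3) in WT. The 3 miR-181c/d members summed to 8.75 ± 7.45 CPM (SD, n = 4) in ALAS12-KO and 7.48 ± 0.918 CPM (SD, n = 3) in WT. Both were lowest in ALAS12-KO replicate 1 and highest in ALAS12-KO replicate 3, and miR-181c/d made up 9.33%, 14.4%, 11.5% and 9.68% of the family in ALAS12-KO replicates 1 to 4 and 13.0%, 13.2% and 13.4% in WT replicates 1 to 3. By arm, the 5p members summed to 71.6 ± 62.9 CPM (SD, n = 4) in ALAS12-KO and 48.0 ± 5.41 CPM (SD, n = 3) in WT. The 3p members summed to 7.13 ± 3.27 CPM (SD, n = 4) in ALAS12-KO and 8.59 ± 1.57 CPM (SD, n = 3) in WT. Summed levels were given no test, because the members were chosen with results of these data known. The difference of the family means was 22.1 CPM. It was −6.91 CPM without ALAS12-KO replicate 3 and 40.8 CPM without ALAS12-KO replicate 1.

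**Figure D3:**
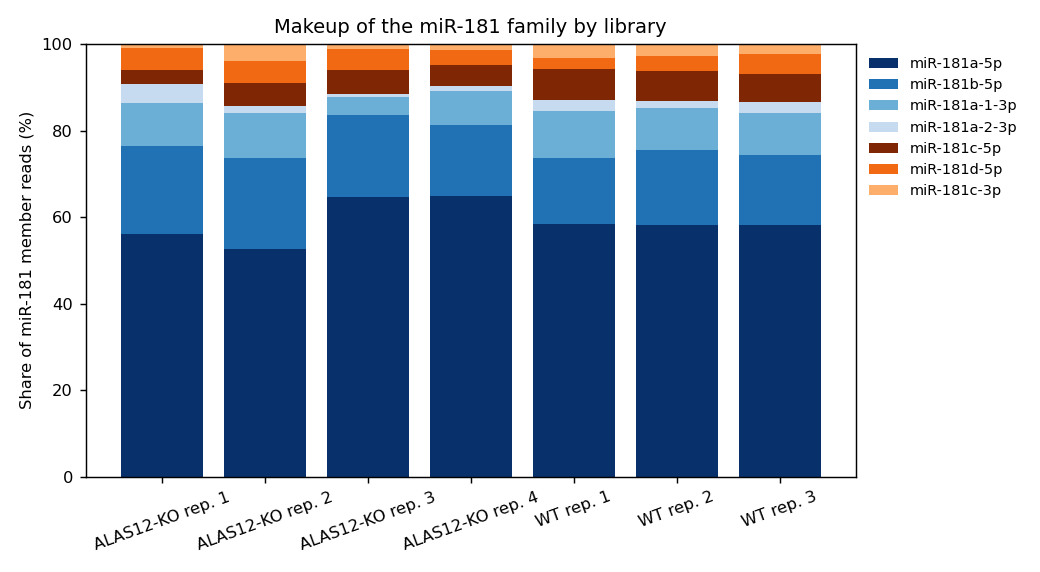
Share of the member reads taken by each member in every library, in percent, with the 4 ALAS12-KO libraries at the left and the 3 WT libraries at the right, miR-181a/b members in blue and miR-181c/d members in brown to orange. miR-181a-5p takes 52.7% to 64.9% in ALAS12-KO and 58.2% to 58.3% in WT.

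Within the family, the share of miR-181c-5p was lower in every ALAS12-KO library than in every WT library. It took 3.33%, 5.39%, 5.57% and 4.77% of member reads in ALAS12-KO replicates 1 to 4 and 7.22%, 6.82% and 6.49% in WT replicates 1 to 3. Relative to miR-181a-5p, from which it differs by the absence of 1 base, it stood at 5.95%, 10.2%, 8.61% and 7.35% in ALAS12-KO and 12.4%, 11.7% and 11.2% in WT. The neighbour miR-181d-5p made up 60.0%, 48.6%, 45.7% and 42.5% of the miR-181c-5p and miR-181d-5p reads in ALAS12-KO replicates 1 to 4 and 26.8%, 34.2% and 41.2% in WT replicates 1 to 3. Here the ALAS12-KO libraries were all above WT, but the 95% Wilson interval of ALAS12-KO replicate 4 was 34.3% to 51.2% and that of WT replicate 3 was 28.8% to 54.8%, so the nearest libraries were within counting error of each other. Relative to miR-181b-5p, from which it differs by the substitution C12U, miR-181d-5p stood at 24.6%, 24.3%, 24.8% and 21.5% in ALAS12-KO and 17.1%, 20.7% and 28.4% in WT, and here the groups overlapped. For the share of miR-181c-5p the nearest libraries held 158 of 2835 member reads in ALAS12-KO replicate 3 and 30 of 462 in WT replicate 3. For its ratio to miR-181a-5p they held 18 and 176 reads in ALAS12-KO replicate 2 and 30 and 269 in WT replicate 3. No interval was computed for either, so counting error was not set beside these gaps. The lowest ALAS12-KO value of both, in replicate 1, rested on 10 reads of miR-181c-5p. The share of member reads taken by each other member overlapped between the genotypes. The shares and ratios given here were picked out after their values were seen and carry no test. Intervals treat reads as independent and leave out library-to-library spread. Reads without molecular identifiers are not independent molecules, so the intervals may be too narrow even for counting error.

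The balance of the arms of miR-181a differed among the ALAS12-KO libraries. The 3p strands of both miR-181a hairpins made up 20.4%, 18.5%, 6.99% and 12.1% of all miR-181a reads in ALAS12-KO replicates 1 to 4 and 18.5%, 16.4% and 17.5% in WT replicates 1 to 3. The 95% Wilson interval of ALAS12-KO replicate 3, 5.95% to 8.21%, lay below the interval of every WT library, of which the lowest bound was 13.7%. ALAS12-KO replicates 1 and 2 were not below the range of WT. As a log2 ratio of 3p to 5p, the means were −2.67 ± 0.81 (SD, n = 4) in ALAS12-KO and −2.24 ± 0.11 (SD, n = 3) in WT. The difference was −0.43, and it was −0.08 without ALAS12-KO replicate 3 and −0.67 without ALAS12-KO replicate 1. Over the 130 hairpins with both arms tested, the median log2 ratio of 3p to 5p was −1.06 in ALAS12-KO replicate 3 and between −1.20 and −0.96 in the other 6 libraries, so the low value for miR-181a was not shared by the median hairpin.

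The miR-181c hairpin is the only one of the family whose arms could be paired by name and tested. Its 3p strand made up 23.1%, 41.9%, 18.1% and 22.3% of its reads in ALAS12-KO replicates 1 to 4 and 30.4%, 29.1% and 26.8% in WT replicates 1 to 3. The log2 ratio of 3p to 5p averaged −1.49 ± 0.73 (SD, n = 4) in ALAS12-KO and −1.29 ± 0.11 (SD, n = 3) in WT. limma gave a difference of −0.21 ± 0.38 (SE), with an adjusted p of 0.903 over 130 hairpins, of which it called 0 (0%) and 7 had an unadjusted p under 0.05. The difference was 0.015 without ALAS12-KO replicate 3, and −0.55 without ALAS12-KO replicate 2, with a limma adjusted p of 0.213. ALAS12-KO replicate 1 had only 3 reads of the 3p strand and 10 of the 5p strand, so its interval ran from 8.18% to 50.3%.

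**Figure D4:**
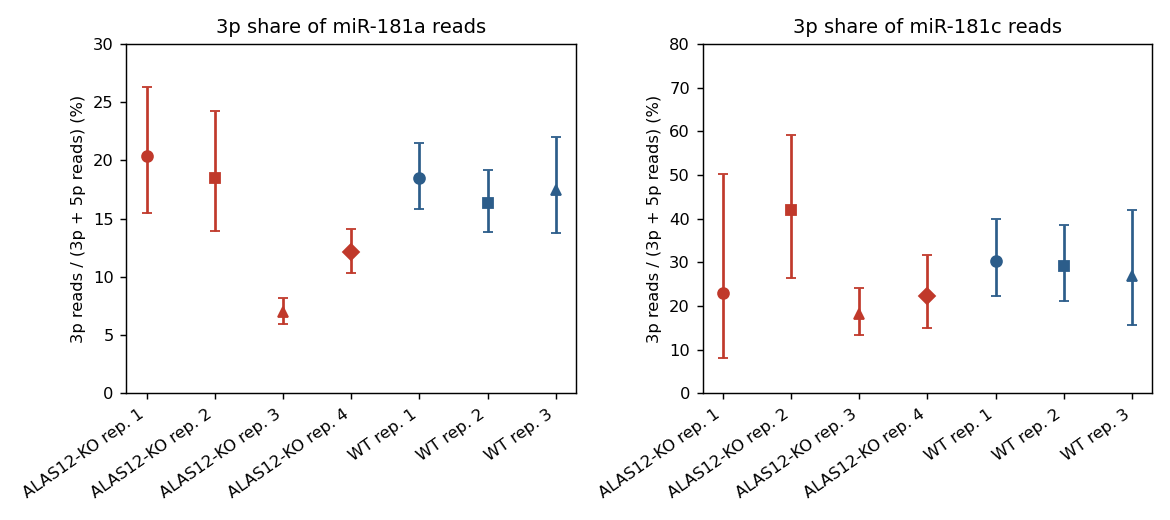
Share of 3p reads among the 3p and 5p reads of miR-181a (left) and miR-181c (right), in percent, for each library, with 95% Wilson intervals for counting error. For miR-181a, ALAS12-KO replicate 3 lies at 6.99% and the WT libraries between 16.4% and 18.5%.

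Between the miR-181a hairpins, the chromosome 1 locus gave most 3p reads in every library. miR-181a-1-3p made up 69.8%, 87.5%, 83.3% and 87.6% of the miR-181a 3p reads in ALAS12-KO replicates 1 to 4 and 81.5%, 85.2% and 78.9% in WT replicates 1 to 3. The mean was 82.0% ± 8.42 (SD, n = 4) in ALAS12-KO and 81.9% ± 3.17 (SD, n = 3) in WT. The difference of these means was 0.14 percentage points, and 4.23 without ALAS12-KO replicate 1. The lowest value, in ALAS12-KO replicate 1, rested on 43 reads, with a 95% Wilson interval of 54.9% to 81.4%.

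Markers of some other cells stood in the order of the family sum and the 5p members within ALAS12-KO, but not in that of the 3p members. Since these are bulk libraries, fewer cells of a type and less RNA per cell cannot be told apart. The 2 endothelial markers summed to 10959 to 36485 CPM in ALAS12-KO and 35562 to 52472 CPM in WT. The 7 leukocyte markers summed to 2999 to 9965 CPM in ALAS12-KO and 8167 to 10976 CPM in WT, and the 5 mesenchymal markers to 1564 to 5730 CPM in ALAS12-KO and 4165 to 6971 CPM in WT. None of these markers was at 0 in any library. In each of these 3 lists the ALAS12-KO libraries stood in the order of miR-181a-5p, with replicate 1 lowest, then replicates 2 and 4, and replicate 3 highest. Replicate 3 was 3.33, 3.32 and 3.66 times replicate 1 in the endothelial, leukocyte and mesenchymal sums, against 8.42 times for miR-181a-5p. For miR-181a-1-3p, miR-181a-2-3p and miR-181c-3p it was 2.95, 1.36 and 8.99 times, the last over 3 reads in replicate 1. Set beside the WT mean, ALAS12-KO replicate 3 held 0.869, 1.06 and 1.00 times the endothelial, leukocyte and mesenchymal sums, against 3.25 times for miR-181a-5p. The same 3p members stood nearer to the markers here, at 1.17, 1.04 and 1.30 times their WT means. Single markers can depart from their sum. Of the mesenchymal list, miR-214-3p stood at 2.13, 5.05, 18.7 and 10.2 CPM in ALAS12-KO replicates 1 to 4. In WT replicates 1 to 3 it stood at 9.24, 6.15 and 6.48 CPM. By contrast, miR-199a-5p and miR-199a-3p of that list did not exceed the WT range in any ALAS12-KO library. Cholangiocyte markers summed to 54.4 to 105 CPM in ALAS12-KO and 139 to 243 CPM in WT, and red cell markers to 9.11 to 20.3 CPM in ALAS12-KO and 20.5 to 27.2 CPM in WT, with 5 of 5 and 4 of 4 markers above 0 in every library. Their ALAS12-KO orders were others, with replicate 1 lowest in both. Replicate 2 stood above replicate 4 for cholangiocyte markers, and replicate 4 was highest for red cell markers. Of the 3p members, miR-181c-3p had the order of the cholangiocyte sum and miR-181a-1-3p that of the red cell sum. miR-181a-2-3p had neither, with replicate 2 lowest. The hepatocyte sum ran the opposite way, lowest in ALAS12-KO replicate 3 and highest in ALAS12-KO replicate 1. The part of these cells in the levels of the family was not tested.

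**Figure D5:**
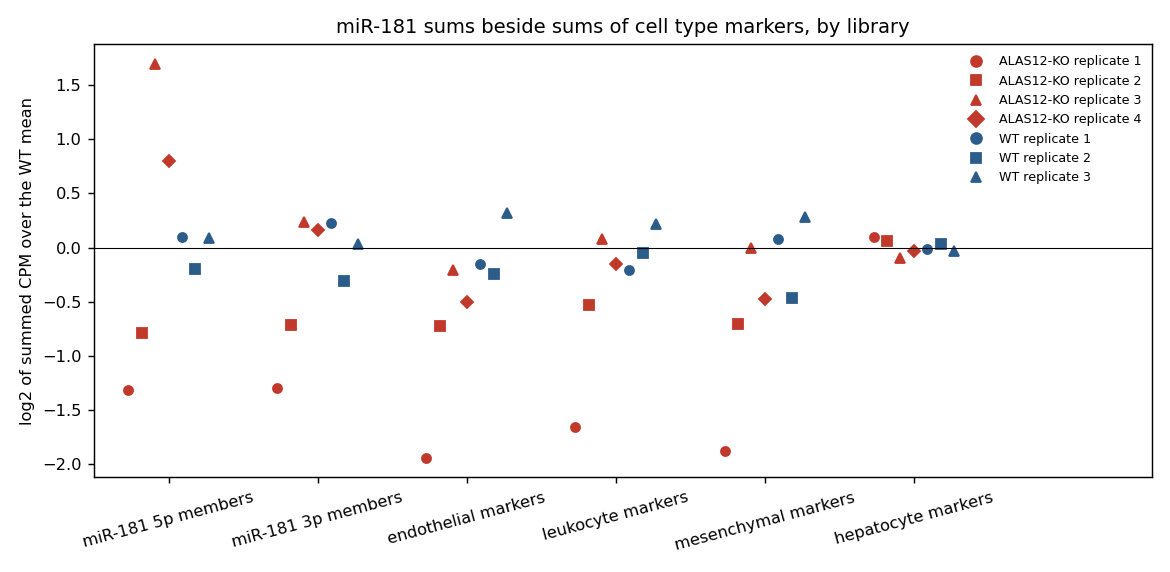
Summed level of the miR-181 5p members, the 3p members and 4 lists of cell type markers in every library, as log2 of the summed CPM over the WT mean, with ALAS12-KO in red at the left of each column and WT in blue. ALAS12-KO replicate 1 is low in the miR-181 sums and in the endothelial, leukocyte and mesenchymal sums, while replicates 3 and 4 exceed every WT library in the 5p members and in none of those 3 marker sums.

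The miRNAs whose profile over the 7 libraries came nearest to the 2 most abundant 5p members were found by the root mean square difference of log2 CPM, each miRNA centred on its own mean, among 220 miRNAs with a mean of at least 10 CPM. For miR-181a-5p they were miR-511-3p (0.24), miR-100-5p (0.33) and miR-322-3p (0.36), beside a median of 0.90 over the 220. miR-511-3p, from a hairpin in the macrophage receptor gene Mrc1, stood at 7.59, 13.5, 59.4 and 30.3 CPM in ALAS12-KO replicates 1 to 4 and at 24.1, 22.1 and 26.7 CPM in WT replicates 1 to 3. For miR-181b-5p they were miR-362-3p (0.25), miR-652-3p (0.26) and miR-362-5p (0.26), beside a median of 0.77, and the miR-362 pair comes from 1 hairpin. The difference between miR-181a-5p and miR-181b-5p themselves was 0.22. These values describe 7 libraries of unequal depth and marker content.

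The cluster of Mir23a, Mir27a and Mir24-2 lies 29556 bases from Mir181c on chromosome 8, on the opposite strand. Of its 6 mature miRNAs 4 were tested, of which 1 had a positive and 3 a negative log2 fold change, and 0 passed the adjusted threshold or had an unadjusted p under 0.05 in edgeR. The median was −0.25 beside 0.06 over all tested miRNAs. miR-24-3p, which a hairpin elsewhere also makes, had a log2 fold change of −0.18 ± 0.12 (SE). miR-23a-3p had −0.31 ± 0.30 and miR-27a-3p −0.55 ± 0.25, with edgeR adjusted p of 0.395, 0.568 and 0.269 for the 3. miR-27a-3p stood at 218, 481, 601 and 506 CPM in ALAS12-KO replicates 1 to 4 and at 649, 629 and 914 CPM in WT replicates 1 to 3, so all ALAS12-KO libraries lay below WT. Among the 4 tested, 2 did not overlap between the genotypes, miR-27a-3p and miR-24-3p, beside 20.7% of all tested miRNAs. The positive one, miR-27a-5p of the miR-27a-3p hairpin, had 0.42 ± 0.52 (SE). It stood at 0.531, 1.09, 2.69 and 3.36 CPM in ALAS12-KO replicates 1 to 4. In WT it stood at 2.18, 0.956 and 1.68 CPM, so it overlapped, as miR-181c-5p and miR-181d-5p did. Of 13 miRNAs linked to fibrosis and TGF-beta, a signal known to raise miR-181b, 8 were positive and 5 negative, 0 passed the adjusted threshold in edgeR and their median log2 fold change was 0.11. An unadjusted p under 0.05 was held by 5 of the 13, beside 18.7% of all tested miRNAs. The genotypes did not overlap for 7 of the 13, beside 20.7% of all tested miRNAs, and these went in both directions. In CPM, miR-21a-5p, miR-21a-3p and miR-34a-5p lay above WT. Below WT lay miR-155-5p, miR-200a-3p, miR-200b-3p and miR-29b-3p, of which miR-29b-3p had a TMM-scaled log2 fold change of 0.01. The list was chosen with results of these data known, so these shares are a description.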

How the data were processed

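The authors deposited 1 table of raw read counts per mature miRNA name for each library, with no normalisation, as the values show. The submitters' processing notes list cutadapt, limma, mm10 and hg38 with no role or version, and the sources used here give no aligner, counter or annotation. Library sizes and tests exclude the 5 summary entries. Among these, reads outside any miRNA were 50.9% to 73.7% and unaligned reads 4.54% to 8.00% of all counted reads. The library preparation added control RNAs, which were not analysed here, so levels are relative to all miRNA reads.

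Levels are CPM of summed miRNA reads, so 1 CPM stood for 7.72 to 22.0 reads. Fold changes, ALAS12-KO over WT, came from edgeR 4.0.16 in R 4.3.3 (quasi-likelihood, robust, TMM factors, filterByExpr at its minimum count of 10). Benjamini-Hochberg adjustment ran over 450 miRNAs with a threshold of 0.05. Arm ratios were tested with limma 3.58.1 after 0.5 was added to each arm, over 130 hairpins. DESeq2 1.42.0, limma-voom, other scalings and filters, sums of near-identical members, a replicate block and omission of each library in turn were the alternatives. Chi-square per degree of freedom was at least 97.4 between libraries of 1 genotype, so none was counted as a duplicate. The labels name no batch.

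All 7 members are named, with the 4 tested miRNAs of the Mir23a cluster and the 3 nearest profiles of the 2 most abundant 5p members. Some miRNAs of the mesenchymal and fibrosis lists are named too, picked after their values were seen. Members, lists, markers and tests were chosen with earlier results of these data known. Sequences came from RefSeq (GRCm38.p6) and positions from GENCODE M21 (GRCm38), read with Python 3.11.15. Both tests were first tested on simulated data. edgeR called 78 of 89 simulated 2-fold changes, 109 of 109 4-fold changes and 1 of 240 unchanged miRNAs. limma called 18 of 19 simulated 4-fold arm changes and 0 of 106 unchanged hairpins. The simulation gave all miRNAs 1 common spread, so the power for members with a wide ALAS12-KO spread was not measured.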

Additional observations from a re-analysis of the deposited data

Results flagged for a closer look

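In 29 quantities of the family, 3 had 1 of the 4 ALAS12-KO libraries far from the others, where chance flags about 1 in 20. In ALAS12-KO replicate 2 the 3p strand of miR-181c stood at 72.2% of the 5p strand, with a gap to the nearest library of 0.843 of the group's range. In the same library miR-181c-3p took 3.89% of the member reads, with a gap of 0.871. Both rest on 13 reads of the 3p strand and 18 of the 5p strand. The log2 form of the miR-181c ratio, also among the 29, was not flagged. In ALAS12-KO replicate 4 miR-181d-5p stood at 21.5% of miR-181b-5p, with a gap of 0.840, while replicates 1 to 3 lay between 24.3% and 24.8%. Replicate 4 had 54 reads of miR-181d-5p and 251 of miR-181b-5p. Replicate 1 had 15 and 61 and replicate 2 had 17 and 70, so counting error is wide beside this gap. WT libraries ran from 17.1% to 28.4%.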

How the results depend on the processing

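The count of members called was 0 under all 16 alternatives. Over all tested miRNAs, edgeR called 2 with library totals and 13 of 1302 with no filter, DESeq2 called 22, and leaving out 1 library gave 0 to 1. Of 107 member values under alternatives 99 kept their sign, with adjusted p from 0.192 to 0.998. The exceptions were miR-181c-5p with limma-voom (−0.20) and the replicate block (−0.43), and values without 1 library. Leaving out each library gave log2 fold changes of −0.014 to 0.93 for miR-181a-5p, −0.58 to 0.46 for miR-181c-5p, −0.32 to 0.10 for miR-181a-1-3p, −0.43 to −0.03 for miR-181a-2-3p, −0.62 to 0.034 for miR-181c-3p and −0.55 to 0.015 for the miR-181c arm ratio. For miR-181a-5p and miR-181c-5p the lowest values were those without ALAS12-KO replicate 3 and the highest those without ALAS12-KO replicate 1. Sign changes of miR-181a-1-3p came without ALAS12-KO replicate 1, ALAS12-KO replicate 2 or WT replicate 1, that of miR-181c-3p without ALAS12-KO replicate 1, and that of the arm ratio without ALAS12-KO replicate 3. Without ALAS12-KO replicate 1, miR-181b-5p had 1.00 and miR-181d-5p 1.16, with edgeR adjusted p of 0.192 and 0.195. The cause of these shifts was not tested. A filter on a mean of at least 10 CPM left 2 members and no arm ratio for miR-181c. Summing near-identical 5p members gave 0.59 for miR-181a-5p with miR-181c-5p and 0.76 for miR-181b-5p with miR-181d-5p.

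The replicate numbers gave no sign of pairing. Deviations of same-numbered libraries correlated at −0.03, −0.47 and 0.00401 for numbers 1 to 3, and 0 of 6 libraries correlated best with their own number. The replicate block called 0 miRNAs, with 60 at unadjusted p under 0.05, and gave 0.01 for miR-181a-5p and −0.11 for the miR-181c arm ratio. Only ALAS12-KO has a replicate 4, so under the block that library adds nothing to the genotype estimate. Leaving it out gave the same arm ratio, −0.11. The lowest member count was 3 reads, of miR-181c-3p in ALAS12-KO replicate 1.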
